A study of Mus musculus with 35 samples.

Results

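The 10 genes described here are Smad2, Smad3, Smad4, Smad6, Smad7, Skil, Smurf2, Id1, Id2 and Id3, taken by gene symbol from the 55487 genes in each RNA-Seq table. Each symbol matched 1 row in each table. All 10 passed the filter on low counts in every comparison, so none is missing from the tests.

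SMAD proteins carry signals of the TGF-β family from receptors at the cell surface to the nucleus. Ligand-bound receptors phosphorylate the receptor-regulated SMADs (SMAD2 and SMAD3 for TGF-β and activin, SMAD1, SMAD5 and SMAD9 for bone morphogenetic proteins, BMPs), which bind the common partner SMAD4 and act on target genes. Several target genes feed back on the pathway: SMAD6 and SMAD7 are inhibitory SMADs, SKIL (SnoN) is a corepressor that binds SMADs, and SMURF2 is a ubiquitin ligase that marks receptors and SMADs for degradation. The Id genes are classical BMP targets, and the proteins they encode bind basic helix-loop-helix (bHLH) transcription factors and keep them from DNA. In cardiac fibroblasts (CFs), TGF-β is best known for the switch to a contractile, matrix-producing myofibroblast state.

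The libraries came from primary CFs of adult mice and from mouse hearts, 35 in all. CFs carried a control siRNA (si-NC in the labels, Scrambled here) or 1 of 2 siRNAs against IAMP, the gene 4930523C07Rik, which encodes a micropeptide (si-IAMP-1 and si-IAMP-2, here IAMP siR-1 and IAMP siR-2). Each of the 3 siRNA groups was sequenced without stimulus, with IL-17 and with TGF-β, giving 9 groups of 3 libraries, and the labels give 24 hours of siRNA followed by 24 hours of IL-17 but no time for the other CFs and no dose. The hearts came from C57BL/6 mice that were heterozygous (Het, n = 4) or homozygous (IAMP-KO, n = 4) for a CRISPR-Cas9 frameshift allele of IAMP, so the heart controls carry the allele too. The hearts were taken from 8-week-old mice under basal conditions, and CFs were isolated from 8-week-old mice whose strain is not given. Nothing says whether the 3 libraries of a group came from separate cell preparations, so p values measure the spread between libraries, which may be technical.

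The siRNA target was low where the labels say it should be. 4930523C07Rik stood at 23.5 ± 1.98 CPM (estimated counts scaled to library size, mean ± SD, n = 3) in untreated Scrambled CFs, 3.01 ± 0.494 CPM after siR-1 and 1.84 ± 0.0635 CPM after siR-2. In the TGF-β CFs the corresponding levels were 20.4 ± 1.92, 4.34 ± 0.297 and 3.26 ± 0.429 CPM, and in the IL-17 CFs 18.7 ± 2.02, 2.61 ± 0.267 and 1.75 ± 0.108 CPM. In hearts the transcript was at 17.0 ± 1.25 CPM in Het and 16.1 ± 0.977 CPM in IAMP-KO mice (SD, n = 4), and since a frameshift need not lower a transcript, this does not check the genotype. The gene overlaps the antisense gene 4930562F07Rik, whose reads cannot be told apart without strand. Fibroblast markers went with the label of the CFs: all 6 were found in every CF library. Of the 5 cardiomyocyte markers Myh6, Actc1, Myl2 and Ryr2 stayed under 1 CPM in each CF library, but Tnnt2 ran from 2.84 to 97.3 CPM. Some markers of other cell types were present as well. Endothelial Cdh5 ran from 16.3 to 42.2 CPM, macrophage Cd68 from 3.90 to 22.0 CPM and mesothelial Upk3b from 8.32 to 49.3 CPM. Others were low, such as Ptprc at 0.259 to 1.23 CPM and Wt1 at 0 to 1.84 CPM. The heart libraries held all 5 cardiomyocyte markers, with a summed level of 36720 to 39435 CPM in Het and 35844 to 38090 CPM in IAMP-KO mice. Correlation of log2 CPM with the rest of the group was 0.972 to 0.984 for every library, so none stood apart.

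The annotation places the genes at sites spread over 7 chromosomes of GRCm38, with Smad3 (chr9:63646767-63757994) and Smad6 (chr9:63953076-64022059) close together on the minus strand of chromosome 9. Smurf2 lies at chr11:106820066-106920715 on the minus strand and Skil at chr3:31095058-31122577 on the plus strand. The Id genes are short: Id1 spans chr2:152736251-152737410, Id2 chr12:25093799-25097140 and Id3 chr4:136143497-136145755.

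The stretches upstream of the start sites were read for sequences that SMADs and bHLH factors are known to bind, and are shown for Id3, Id2, Smurf2 and Smad6, whose values the results below turn on. The RefSeq promoter table (GRCm38.p6) matched 5 of the 10 genes: Id2, Id3, Smad3, Smad6 and Smurf2. The motifs, 4 in all, were searched on both strands in the 250 bases before the start site, and no matches overlapped: CAGAC, the SMAD box, in 42.2% of 32851 promoters, the palindromic SMAD element GTCTAGAC, in 0.167%, GGCGCC, a GC-rich motif bound by SMADs, in 9.59%, and CANNTG, the E-box of bHLH factors, in 66.2%. Capitals mark CAGAC, its reverse complement GTCTG, or GGCGCC. Id3 held 2 matches of CAGAC, each shown with the bases beside it, at chr4:136143643-136143671 and chr4:136143742-136143770, plus strand. Positions count back from the RefSeq start site, and the Id3 and Id2 stretches lie within the longer GENCODE spans given above.
Id3, match at -167: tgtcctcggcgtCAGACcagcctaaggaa
Id3, match at -68: ggacccttggcgGTCTGttttgaataagg
The Id2 stretch outside annotated exons (chr12:25096254-25096342, minus strand) held 1 GGCGCC at -231 and, in lower case, 1 E-box, cagctg, at -196.
Id2: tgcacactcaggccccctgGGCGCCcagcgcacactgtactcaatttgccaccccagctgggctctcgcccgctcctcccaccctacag
The 250 bases before Smurf2 (chr11:106920716-106920965, minus strand) held 1 GTCTG at -203 and GGCGCC at -234 and -147, in a window that was 82% G or C.
Smurf2: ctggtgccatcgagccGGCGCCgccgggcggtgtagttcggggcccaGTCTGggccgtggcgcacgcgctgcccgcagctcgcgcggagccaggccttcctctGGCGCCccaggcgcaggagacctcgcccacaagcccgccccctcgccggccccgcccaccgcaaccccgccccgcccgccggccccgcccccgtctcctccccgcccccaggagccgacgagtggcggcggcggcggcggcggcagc
The 250 bases before Smad6 (chr9:64022060-64022309, minus strand) held none of the 4 motifs, and neither did those before its neighbour Smad3.
Smad6: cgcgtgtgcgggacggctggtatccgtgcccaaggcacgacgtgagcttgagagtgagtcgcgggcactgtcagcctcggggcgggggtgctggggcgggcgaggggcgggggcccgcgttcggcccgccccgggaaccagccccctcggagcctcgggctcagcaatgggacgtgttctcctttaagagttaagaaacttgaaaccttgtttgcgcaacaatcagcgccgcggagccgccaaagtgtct
A match says only that these letters stand in the window.

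Of the genes shown without sequence, Smad2 lies at chr18:76241580-76310963, Smad7 at chr18:75367529-75395935 and Smad4 at chr18:73639009-73703780, where it overlaps the pseudogene AC132418.2 on the other strand. The strand setting of the counting is not stated, so reads of that pair cannot be told apart here. Smurf2 also spans the annotated miRNA gene Gm27322.

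In untreated Scrambled CFs, Id3 was the most abundant of the 10 per length, at 145 ± 11.6 CPM per kilobase of merged exon (SD, n = 3), followed by Smurf2 at 80.3 ± 5.02. Smad6 (65.1 ± 3.30 CPM per kilobase) and Id1 (59.0 ± 4.12) came next, with ranges that overlapped. Id2 stood at 47.7 ± 0.744 CPM per kilobase, and the others were lower. Smad7 (25.2 ± 0.726) and Smad4 (23.8 ± 0.816) overlapped in range and lay above Smad3 (19.9 ± 0.458), Skil (13.5 ± 1.20) and Smad2 (8.30 ± 0.0896 CPM per kilobase). In Scrambled CFs given TGF-β, Id3 was again highest at 57.0 ± 1.38 CPM per kilobase, Smad4 stood at 16.9 ± 0.505, and Skil, Smad7, Smad3, Id1 and Id2 (13.3 ± 0.718 down to 11.7 ± 0.112) overlapped each with the next. In Het hearts Id1 and Id3 led, at 29.5 ± 2.63 and 22.8 ± 2.94 CPM per kilobase (SD, n = 4), and Skil and Smad2 were lowest, at 1.31 ± 0.139 and 1.47 ± 0.124. Hearts and CFs were quantified in separate tables and differ in cell content, so these levels are set side by side without a test. In bulk tissue, fewer cells of a type and less RNA per cell cannot be told apart.

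**Figure D1:**
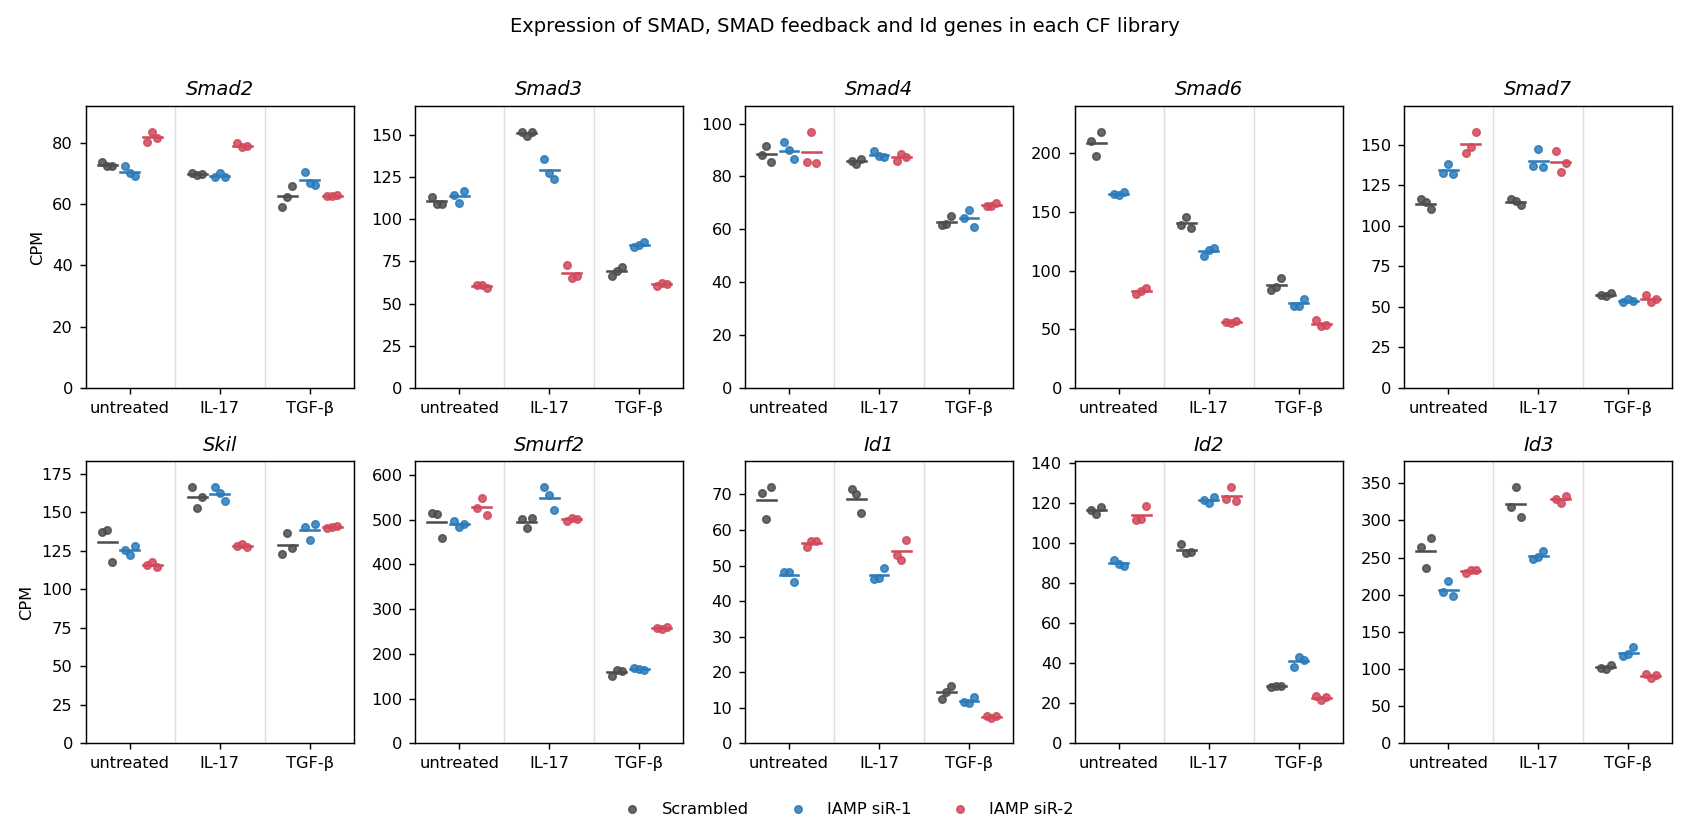
CPM (vertical axis, from 0, a separate scale for each gene) of the 10 genes in each of the 27 CF libraries, grouped by stimulus on the horizontal axis. Points are libraries, bars are means of 3, and colors mark the 3 siRNA groups. The 3 Id genes, Smurf2, Smad7 and Smad4 lay lower in all TGF-β libraries than in any untreated or IL-17 library. The share of all genes that did so was not counted.

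TGF-β was set against no stimulus in Scrambled CFs to ask how these genes stood in cells given the pathway's own ligand. Of the 10 genes, 9 were lower with TGF-β and none higher, in a comparison where 27.5% of the 22359 genes tested were lower and 28.0% higher (edgeR's quasi-likelihood test, Benjamini-Hochberg adjusted p of at most 0.05, the call used throughout). The median log2 fold change of the 10 was -1.12, against 0.019 over all genes tested. Where ranges of libraries are compared, here and below, the share of all genes with separate ranges was not counted. Stimulus and table cannot be told apart in this comparison, because untreated and TGF-β CFs were deposited in separate tables. Summed marker levels also differed between the same libraries, here in untreated and then TGF-β Scrambled CFs. The 6 fibroblast markers, which include collagen genes, summed to 8331 to 8463 CPM and 13995 to 14591 CPM. The 5 endothelial markers summed to 46.8 to 52.6 CPM and 88.5 to 90.0 CPM, the 5 smooth muscle and pericyte markers to 5.14 to 6.61 CPM and 25.3 to 27.9 CPM (2 and then 1 of them under 1 CPM), and the 5 macrophage markers to 17.6 to 19.8 CPM and 37.4 to 44.6 CPM (1 and then 2 under 1 CPM). The 3 mesothelial markers summed to 52.5 to 56.2 CPM and 23.4 to 28.3 CPM, and the 5 cardiomyocyte markers, nearly all Tnnt2, to 89.9 to 97.7 CPM and 4.65 to 5.34 CPM. Their part in the values below was not tested.

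Id1 and Id2 had the largest decreases of the 10. Id1 was at 70.3, 63.0 and 72.1 CPM in the 3 untreated Scrambled libraries and at 12.4, 14.4 and 16.2 CPM with TGF-β, with no overlap, a log2 fold change of -2.26 ± 0.072 (SE, edgeR adjusted p = 1.44e-22), or 4.78-fold lower. Id2, also an inhibitor of bHLH factors, went from 116, 115 and 118 CPM to 28.2, 28.7 and 28.4 CPM, 4.09-fold lower, with a log2 fold change of -2.03 ± 0.04 (SE, edgeR adjusted p = 3.60e-28). Id3 went from 264, 236 and 277 CPM to 101, 101 and 105 CPM, a log2 fold change of -1.34 ± 0.048 (SE, edgeR adjusted p = 6.64e-21). For all 3 Id genes each TGF-β library was below each untreated one.

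Among the feedback genes, Smurf2 was at 514, 511 and 459 CPM in untreated Scrambled CFs and at 151, 163 and 162 CPM with TGF-β, 3.12-fold lower, a log2 fold change of -1.64 ± 0.039 (SE, edgeR adjusted p = 3.29e-26). Both inhibitory SMADs fell as well. Smad6, which chiefly restrains BMP signals, went from 210.2, 198 and 219 to 83.4, 85.9 and 93.8 CPM, a log2 fold change of -1.25 ± 0.044 (SE, edgeR adjusted p = 8.22e-22). Smad7, which restrains TGF-β and BMP receptors alike, went from 117, 115 and 110.2 to 57.5, 56.5 and 58.7 CPM, a log2 fold change of -0.98 ± 0.04 (SE, edgeR adjusted p = 3.26e-20). Skil was the exception, with 137, 138 and 118 CPM untreated, 123, 136 and 127 CPM with TGF-β, overlapping ranges and a log2 fold change of -0.026 ± 0.045 (SE, edgeR adjusted p = 0.662). The signal transducers moved less: Smad3 had a log2 fold change of -0.68 ± 0.039, Smad4 of -0.49 ± 0.042 and Smad2 of -0.22 ± 0.035, each past the threshold (edgeR adjusted p = 3.41e-16, 6.11e-12 and 1.65e-06) and with ranges that did not overlap.

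With IL-17, an inflammatory cytokine, 3 of the 10 genes were higher and 2 lower in Scrambled CFs, in a comparison with 6.13% of genes higher and 6.10% lower. Smad3 rose from 113, 109 and 109 CPM to 152, 149 and 152 CPM, a log2 fold change of 0.45 ± 0.039 (SE, edgeR adjusted p = 1.08e-10). Skil rose with a log2 fold change of 0.29 ± 0.045 (SE, edgeR adjusted p = 1.38e-05) and Id3 with one of 0.32 ± 0.047 (SE, edgeR adjusted p = 7.76e-06). Smad6 fell from 210.2, 198 and 219 to 139, 145 and 136 CPM, a log2 fold change of -0.57 ± 0.043 (SE, edgeR adjusted p = 4.97e-12), and Id2 fell with one of -0.27 ± 0.038 (SE, edgeR adjusted p = 3.00e-06). Ranges did not overlap for these 5 genes. The other 5 had log2 fold changes from -0.063 (Smad2) to 0.015 (Smad7), with Smurf2 at 495 ± 30.9 CPM untreated and 495 ± 12.7 CPM with IL-17. These tables also differ, so stimulus and table cannot be told apart here either.

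**Figure D2:**
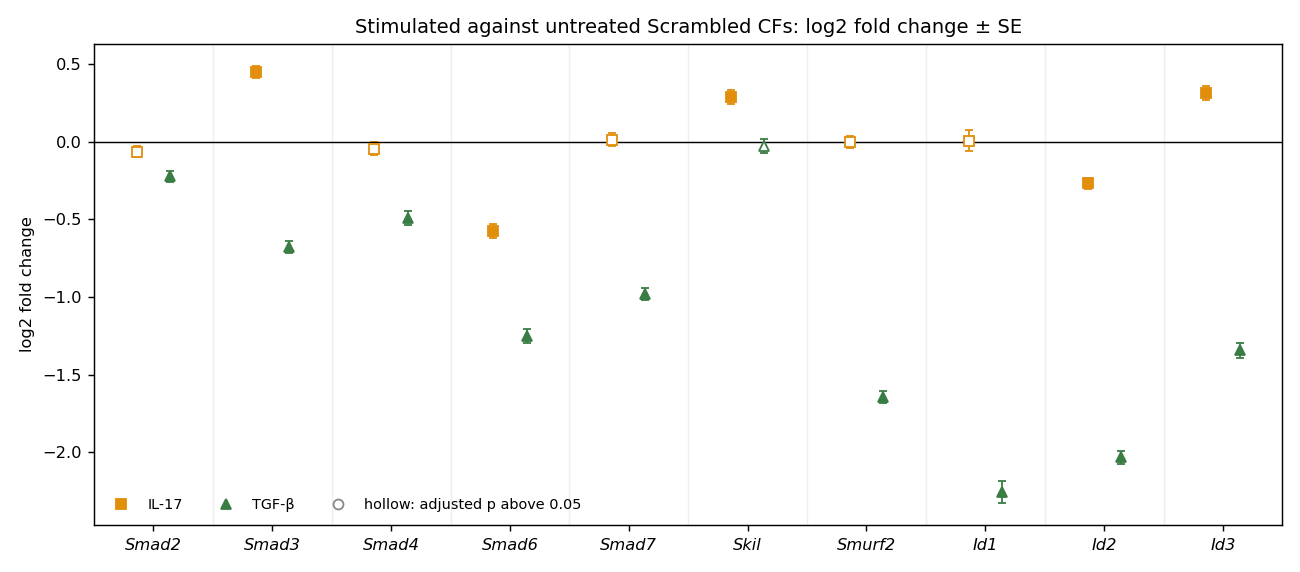
Log2 fold change (vertical axis) of each gene in Scrambled CFs given IL-17 or TGF-β against untreated Scrambled CFs, 3 libraries each. Points are edgeR estimates, bars are ± SE, and hollow points missed the adjusted p threshold of 0.05. With TGF-β the values ran from -0.026 for Skil to -2.26 for Id1, while IL-17 values lay between -0.57 and 0.45.

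Knockdown of IAMP in untreated CFs was compared with Scrambled for each siRNA on its own. Both comparisons use the same 3 Scrambled libraries, so they are not independent of each other. With siR-1, Smad7 was higher and Smad6, Id1, Id2 and Id3 were lower, 1 and 4 of the 10 genes, while 19.5% of 19669 genes were higher and 20.4% lower. With siR-2, Smad2 and Smad7 were higher and Smad3, Smad6, Skil, Id1 and Id3 were lower, 2 and 5 of the 10, while 24.4% of genes were higher and 25.0% lower. The median log2 fold change of the 10 was -0.061 after siR-1 and -0.12 after siR-2, against -0.016 and -0.020 over all genes. Under the study's own fold threshold, a log2 fold change of at least 1 in size, none of these calls remained after siR-1 and 1, Smad6, after siR-2. The shares over all genes above are without this threshold, and the share past it was not counted.

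Smad6, the inhibitory SMAD of the BMP branch, was lower with each siRNA. It was at 210.2, 198 and 219 CPM in the Scrambled libraries, 166, 165 and 167 CPM after siR-1 and 80.3, 82.5 and 85.3 CPM after siR-2, so the 3 groups were fully apart. The log2 fold change was -0.34 ± 0.037 (SE, edgeR adjusted p = 1.34e-06) after siR-1 and -1.36 ± 0.038 (SE, edgeR adjusted p = 3.36e-14) after siR-2, or 2.56-fold lower after siR-2. Smad7, the other inhibitory SMAD, moved the other way, from 117, 115 and 110.2 CPM in Scrambled to 133, 138 and 132 CPM after siR-1 and 145, 149 and 158 CPM after siR-2. Its log2 fold change was 0.23 ± 0.038 (SE, edgeR adjusted p = 9.47e-05) and 0.39 ± 0.038 (SE, edgeR adjusted p = 1.91e-07).

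The TGF-β transducer Smad3 separated the siRNAs. It was at 113, 109 and 109 CPM in Scrambled, 114, 109 and 116 CPM after siR-1 and 60.9, 61.0 and 59.2 CPM after siR-2. The siR-1 libraries overlapped the Scrambled ones (log2 fold change 0.033 ± 0.034), whereas every siR-2 library was far below them, with a log2 fold change of -0.89 ± 0.034 (SE, edgeR adjusted p = 1.25e-12). Smad2, its close relative, had a log2 fold change of -0.052 ± 0.034 after siR-1 and of 0.15 ± 0.034 (SE, edgeR adjusted p = 0.00169) after siR-2, from 72.9 ± 0.787 to 81.8 ± 1.75 CPM. Smad4, the shared partner, was at 88.4 ± 3.03 CPM in Scrambled, with 89.7 ± 3.18 CPM after siR-1 and 89.3 ± 6.66 CPM after siR-2, and log2 fold changes of 0.015 ± 0.045 and -0.0062 ± 0.045 that missed the threshold.

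Skil, the corepressor, had a log2 fold change of -0.07 ± 0.047 after siR-1 and fell after siR-2, with a log2 fold change of -0.20 ± 0.048 (SE, edgeR adjusted p = 0.00234), although the ranges overlapped (137, 138 and 118 against 116, 118 and 115 CPM). Smurf2 was among the most abundant of the 10 in each group and gave -0.019 ± 0.038 and 0.075 ± 0.038, both short of the threshold.

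The Id genes were lower after siR-1 throughout. Id1 stood at 70.3, 63.0 and 72.1 CPM in Scrambled, 48.2, 48.2 and 45.2 CPM after siR-1 and 55.3, 57.0 and 56.9 CPM after siR-2, with log2 fold changes of -0.54 ± 0.05 (SE, edgeR adjusted p = 1.53e-07) and -0.30 ± 0.049 (SE, edgeR adjusted p = 6.73e-05). Id2 stood at 116, 115 and 118 CPM in Scrambled and at 91.6, 89.5 and 88.7 CPM after siR-1, a log2 fold change of -0.38 ± 0.034 (SE, edgeR adjusted p = 1.42e-07), while the siR-2 libraries at 112, 112 and 118 CPM overlapped Scrambled. Id3 fell in both, to 207 ± 10.5 CPM after siR-1 and 232 ± 2.64 CPM after siR-2 from 259 ± 20.7 CPM, with log2 fold changes of -0.33 ± 0.051 (SE, edgeR adjusted p = 8.63e-05) and -0.18 ± 0.051 (SE, edgeR adjusted p = 0.00775). The siR-2 mean lay between those of Scrambled and siR-1 for all 3 Id genes.

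Set directly against each other in untreated CFs, siR-2 and siR-1 differed for 8 of the 10 genes, where 45.5% of all genes differed. Smad6 and Smad3 were lower after siR-2, with log2 fold changes of -1.02 ± 0.038 (SE, edgeR adjusted p = 1.87e-12) and -0.92 ± 0.034 (SE, edgeR adjusted p = 1.56e-12). Skil was also lower, at -0.13 (edgeR adjusted p = 0.0409), a call lost with any 1 of the 6 libraries left out (-0.14 to -0.11). The 3 Id genes were higher after siR-2 than after siR-1, Id2 by 0.33 ± 0.034 (SE, edgeR adjusted p = 5.25e-07), Id1 by 0.24 ± 0.05 and Id3 by 0.15 ± 0.051, the last no longer called without any 1 library other than replicate 2 of siR-1 (0.12 to 0.20). Smad2 and Smad7 were higher after siR-2 by 0.20 ± 0.034 and 0.15 ± 0.038. Markers of other cell types differed between the same groups: the summed level of the 5 cardiomyocyte markers was 89.9 to 97.7 CPM in Scrambled, 41.9 to 46.9 CPM after siR-1 and 27.6 to 32.6 CPM after siR-2, nearly all of it Tnnt2, since the other 4 markers were under 1 CPM, 1 of them at 0 in all Scrambled, 1 in all siR-1 and 2 in all siR-2 libraries. The 5 macrophage markers summed to 17.6 to 19.8, 22.4 to 22.8 and 29.4 to 30.9 CPM, 1 of them under 1 CPM in each group and none at 0 throughout. The fibroblast markers summed to 8331 to 8463, 11089.5 to 11394.8 and 7838.59 to 8064.5 CPM in the same order. The mesothelial markers summed to 52.5 to 56.2, 54.1 to 57.2 and 41.1 to 43.6 CPM in the same order. The part of all these markers in the differences was not tested.

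In the IL-17 CFs, which were transfected for 24 hours before 24 hours of IL-17, siR-1 gave 3 of the 10 genes higher and 4 lower (20.3% and 21.9% of 19906 genes), and siR-2 also 3 higher and 4 lower (25.0% and 25.6%). Smad6 was again lower with both siRNAs, at 139, 145 and 136 CPM in Scrambled, 112, 118 and 119 CPM after siR-1 and 56.5, 55.7 and 57.1 CPM after siR-2, log2 fold changes of -0.28 ± 0.034 (SE, edgeR adjusted p = 3.72e-06) and -1.33 ± 0.035 (SE, edgeR adjusted p = 6.94e-15). Smad3 was now lower with both, from 152, 149 and 152 CPM to 135, 127 and 124 CPM after siR-1 and 72.9, 65.0 and 66.6 CPM after siR-2, with log2 fold changes of -0.24 ± 0.042 (SE, edgeR adjusted p = 1.69e-04) and -1.17 ± 0.043 (SE, edgeR adjusted p = 3.83e-13). Smad7 was higher with both, by 0.28 ± 0.04 and 0.26 ± 0.04. No library of the knockdown groups overlapped the Scrambled range for these 3 genes.

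The Id genes parted ways in the IL-17 CFs. Id1 was lower with both siRNAs, with 71.5, 70.2 and 64.7 CPM in Scrambled, 46.3, 46.6 and 49.3 CPM after siR-1 and 53.0, 51.7 and 57.2 CPM after siR-2 (log2 fold changes -0.55 ± 0.049 and -0.37 ± 0.048). Id2 was higher with both, rising from 99.5, 94.7 and 95.6 CPM to 121, 119.8 and 123 CPM after siR-1 and 122, 128 and 121 CPM after siR-2, log2 fold changes of 0.32 ± 0.03 (SE, edgeR adjusted p = 1.63e-07) and 0.33 ± 0.03 (SE, edgeR adjusted p = 4.82e-08). Id3 was lower after siR-1, at -0.36 ± 0.038 (SE, edgeR adjusted p = 5.58e-07), and overlapped Scrambled after siR-2, at 0.0064 ± 0.038. Of the others, Smurf2 was higher after siR-1 (0.14 ± 0.032 SE, edgeR adjusted p = 0.00176), and Skil was lower (-0.34 ± 0.032 SE, edgeR adjusted p = 9.86e-08) and Smad2 higher (0.16 ± 0.031 SE, edgeR adjusted p = 2.77e-04) after siR-2. Smad4 missed the threshold with both siRNAs. siR-2 and siR-1 differed for 7 of the 10 genes, where 46.2% of all genes differed. The widest gaps were Smad6 at -1.05 ± 0.035 and Smad3 at -0.93 ± 0.043, and Id3 (0.37 ± 0.038), Smad2 (0.18 ± 0.031) and Id1 (0.18 ± 0.049) were higher after siR-2. Skil (-0.35 ± 0.032) and Smurf2 (-0.14 ± 0.032) were lower after siR-2, and Smad4 (-0.025), Smad7 (-0.019) and Id2 (0.017) missed the threshold. The Id1 call was lost without replicate 3 of siR-2 (0.13). In the IL-17 groups the cardiomyocyte markers summed to 69.4 to 76.2 CPM in Scrambled, 31.8 to 35.4 CPM after siR-1 and 22.8 to 25.7 CPM after siR-2. The macrophage markers summed to 17.9 to 20.2, 23.9 to 24.5 and 29.2 to 32.5 CPM in the same order. The fibroblast markers summed to 8196 to 8312, 10335 to 10768 and 7937 to 8190 CPM in the same order. The mesothelial markers summed to 46.2 to 50.2, 51.8 to 52.7 and 36.3 to 39.2 CPM in the same order. The part of these markers in the results was not tested.

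In the TGF-β CFs, siR-1 gave 3 genes higher and 1 lower (11.7% and 11.4% of 19891 genes), and siR-2 gave 3 higher and 5 lower (15.1% and 14.8%). For siR-1, dividing the estimated counts by 6 gave 7 called genes in place of 4, with Smad2, Skil and Id1 added. In that setting 2462 of 14960 genes tested were higher and 2424 lower, against 2333 and 2263 of 19891 without the division. Smad6 was lower with both siRNAs here too, at 83.4, 85.9 and 93.8 CPM in Scrambled, 69.8, 70.1 and 76.1 CPM after siR-1 and 57.6, 52.6 and 53.9 CPM after siR-2, log2 fold changes of -0.28 ± 0.052 (SE, edgeR adjusted p = 5.56e-04) and -0.68 ± 0.052 (SE, edgeR adjusted p = 2.56e-08). It was thus the 1 gene of the 10 called in the same direction in all 6 comparisons of an siRNA with Scrambled. Id1 was called lower in 5 of them. Between 11.4% and 25.6% of all genes were called lower in each, and both siRNAs of a table share its Scrambled libraries. The share of all genes called alike in all 6 was not counted, so this does not mark Smad6 as particular. Smad7 was called in neither TGF-β comparison, with 57.6 ± 1.12 CPM in Scrambled, 53.9 ± 0.841 CPM after siR-1 and 55.0 ± 2.27 CPM after siR-2.

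Smurf2 and Smad3 set the siRNAs apart under TGF-β. Smurf2 was at 151, 163 and 162 CPM in Scrambled and 169, 167 and 164 CPM after siR-1, but at 259, 256 and 259 CPM after siR-2, a log2 fold change of 0.70 ± 0.034 (SE, edgeR adjusted p = 1.08e-10), or 1.63-fold higher. Even so, the siR-2 libraries remained below the 514, 511 and 459 CPM of the untreated Scrambled CFs. Smad3 was higher after siR-1, at 83.2, 84.9 and 86.3 CPM against 66.1, 69.5 and 71.5 CPM in Scrambled (0.30 ± 0.04 SE, edgeR adjusted p = 2.83e-05), and lower after siR-2, at 60.6, 62.0 and 61.8 CPM (-0.17 ± 0.04 SE, edgeR adjusted p = 0.00415).

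The Id genes also split by siRNA in the TGF-β CFs. Id1 was low throughout, 12.4, 14.4 and 16.2 CPM in Scrambled, 11.5, 11.2 and 13.1 CPM after siR-1 and 7.78, 7.09 and 7.71 CPM after siR-2, and the last group rested on 736 to 831 estimated counts per library. The siR-1 value of -0.26 ± 0.10 (SE, edgeR adjusted p = 0.0618) missed the threshold, and siR-2 was lower, with a log2 fold change of -0.93 ± 0.10 (SE, edgeR adjusted p = 1.05e-06). Id2 was higher after siR-1 (37.9, 43.0 and 41.6 CPM) and lower after siR-2 (23.6, 21.8 and 23.0 CPM) than in Scrambled (28.2, 28.7 and 28.4 CPM), with log2 fold changes of 0.52 ± 0.057 (SE, edgeR adjusted p = 2.86e-06) and -0.32 ± 0.057 (SE, edgeR adjusted p = 3.60e-04). Id3 followed the same order, with 122 ± 6.05 CPM after siR-1, 91.2 ± 3.05 CPM after siR-2 and 102 ± 2.46 CPM in Scrambled (0.26 ± 0.041 SE, edgeR adjusted p = 1.42e-04 and -0.16 ± 0.041 SE, edgeR adjusted p = 0.00587). With siR-2, Skil (0.13 ± 0.041 SE, edgeR adjusted p = 0.0261) and Smad4 (0.14 ± 0.044 SE, edgeR adjusted p = 0.0247) were slightly higher. The Skil call was lost without any 1 library other than Scrambled replicate 2 (0.094 to 0.17), and the Smad4 call without any 1 other than Scrambled replicate 3 (0.12 to 0.16). siR-2 and siR-1 differed for 6 of the 10 genes, where 24.0% of all genes differed: Smurf2 was higher after siR-2 (0.63 ± 0.034), and Id2 (-0.84 ± 0.058), Id1 (-0.67 ± 0.10), Smad3 (-0.46 ± 0.04), Id3 (-0.42 ± 0.041) and Smad6 (-0.40 ± 0.052) were lower. Smad2 (-0.11), Smad4 (0.11), Smad7 (0.031) and Skil (0.021) missed the threshold. The smooth muscle and pericyte markers summed to 25.3 to 27.9 CPM in Scrambled, 17.7 to 20.8 CPM after siR-1 and 12.9 to 14.2 CPM after siR-2 in the same libraries, and their part was not tested.

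**Figure D3:**
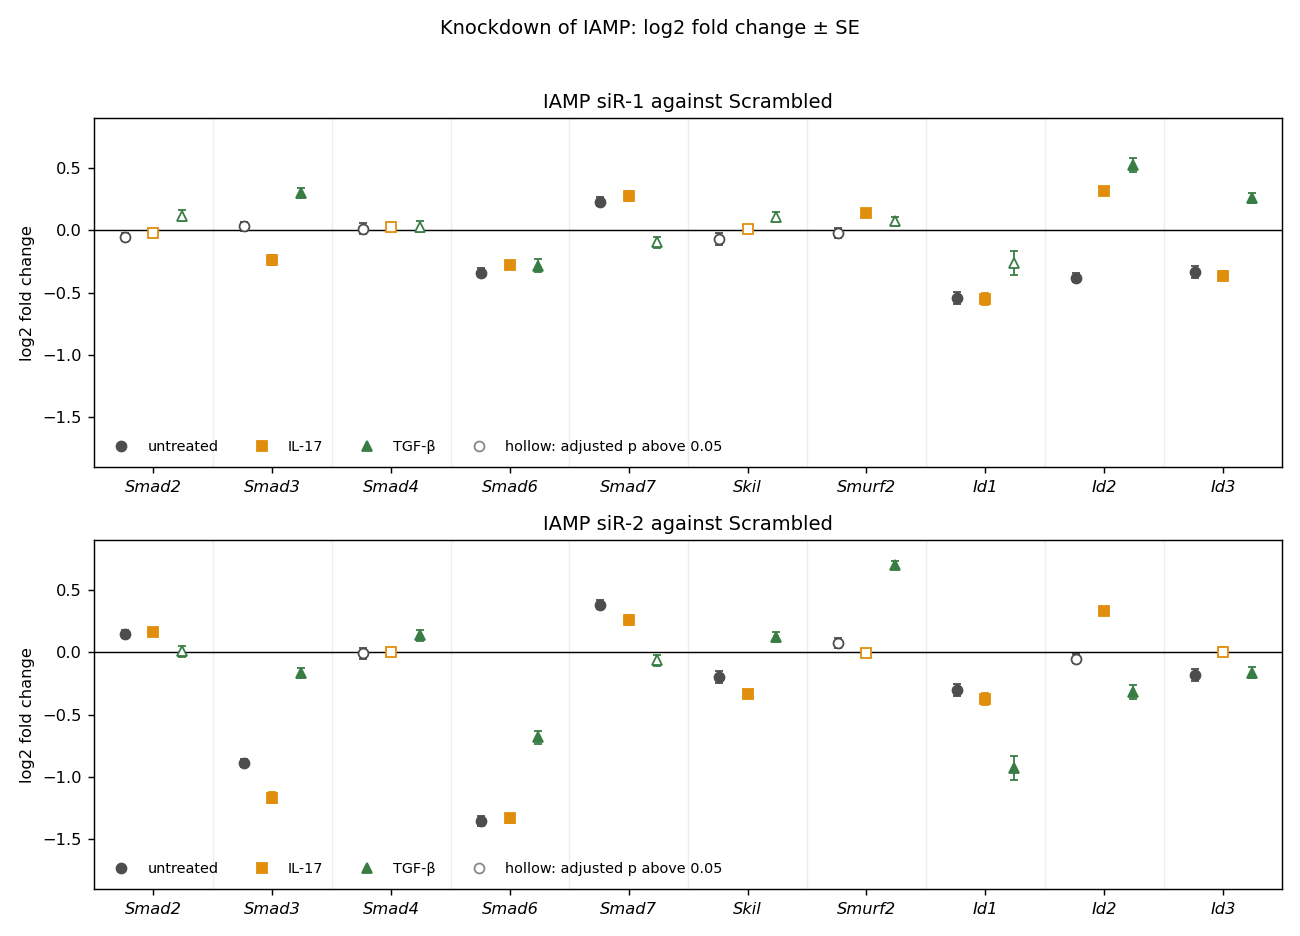
Log2 fold change (vertical axis) of each gene for IAMP siR-1 (top) and IAMP siR-2 (bottom) against Scrambled in untreated, IL-17 and TGF-β CFs, 3 libraries per group. Points are edgeR estimates, bars are ± SE, and hollow points missed the adjusted p threshold of 0.05. Smad6 and Id1 lay below 0 in all 6 comparisons, and Id2 lay on both sides of 0 with each siRNA.

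Whether a knockdown effect differed between stimulated and untreated CFs was tested as the difference of the 2 log2 fold changes. This used 1 edgeR fit over the 27 CF libraries, in which a shift shared by all siRNA groups of a table cancels. A knockdown effect that differs between tables for another reason does not cancel, so stimulus and table cannot be told apart in these differences. For IL-17 against no stimulus, 2 of the 10 genes differed after siR-1, where 1.73% of all genes did, and 2 after siR-2, where 1.64% did, Smad3 and Id2 in both cases. The Id2 effect went up, by 0.70 ± 0.054 (SE, edgeR adjusted p = 2.67e-10) for siR-1 and 0.39 ± 0.054 (SE, edgeR adjusted p = 1.74e-05) for siR-2. The Smad3 effect went down, with differences of -0.27 ± 0.055 (SE, edgeR adjusted p = 0.00401) and -0.28 ± 0.055 (SE, edgeR adjusted p = 0.00264). These tests share the Scrambled libraries of each table. The other 8 genes had differences from -0.025 (Id3) to 0.16 (Smurf2) after siR-1 and from -0.14 (Skil) to 0.19 (Id3) after siR-2, and none of them passed the threshold.

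For TGF-β against no stimulus, 6 of the 10 effects differed after siR-1 (19.5% of all genes) and 8 after siR-2 (29.5%). The siR-1 effect was higher under TGF-β for all 3 Id genes, by 0.89 ± 0.055 (SE, edgeR adjusted p = 8.56e-14) for Id2, 0.59 ± 0.067 (SE, edgeR adjusted p = 6.74e-08) for Id3 and 0.28 ± 0.10 (SE, edgeR adjusted p = 0.0473) for Id1. It was lower for Smad7, with a difference of -0.33 ± 0.056 (SE, edgeR adjusted p = 2.95e-05), and higher for Smad3, by 0.26 ± 0.055, and for Smad2, by 0.16 ± 0.049. Leaving out 1 of the 12 libraries at a time ended the Id1 call 8 times (0.19 to 0.38) and the Smad2 call 3 times, without untreated siR-1 replicate 3, TGF-β Scrambled replicate 1 or TGF-β siR-1 replicate 1 (0.13 to 0.21). With siR-2 the strong decreases of Smad3 and Smad6 seen in untreated CFs were smaller under TGF-β, by 0.70 ± 0.056 (SE, edgeR adjusted p = 7.52e-12) and 0.65 ± 0.062 (SE, edgeR adjusted p = 4.20e-10), and Smurf2 (0.61 ± 0.054) and Skil (0.30 ± 0.064) went up. Id1 (-0.65 ± 0.10 SE, edgeR adjusted p = 4.80e-06), Smad7 (-0.47 ± 0.056 SE, edgeR adjusted p = 4.37e-08), Id2 (-0.29 ± 0.056) and Smad2 (-0.16 ± 0.049) went down. The Smad2 call was lost without untreated Scrambled replicate 1, untreated siR-2 replicate 3 or TGF-β Scrambled replicate 2 or 3 (-0.17 to -0.11). The knockdown itself was also smaller under TGF-β, the log2 fold change of 4930523C07Rik being -2.97 in untreated and -2.23 in TGF-β CFs after siR-1 (difference 0.73 ± 0.15 SE, edgeR adjusted p = 5.41e-04) and -3.69 and -2.65 after siR-2 (difference 1.02 ± 0.16 SE, edgeR adjusted p = 3.84e-06). The part of this in the differences above was not tested, and for these values too stimulus and table cannot be told apart.

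**Figure D4:**
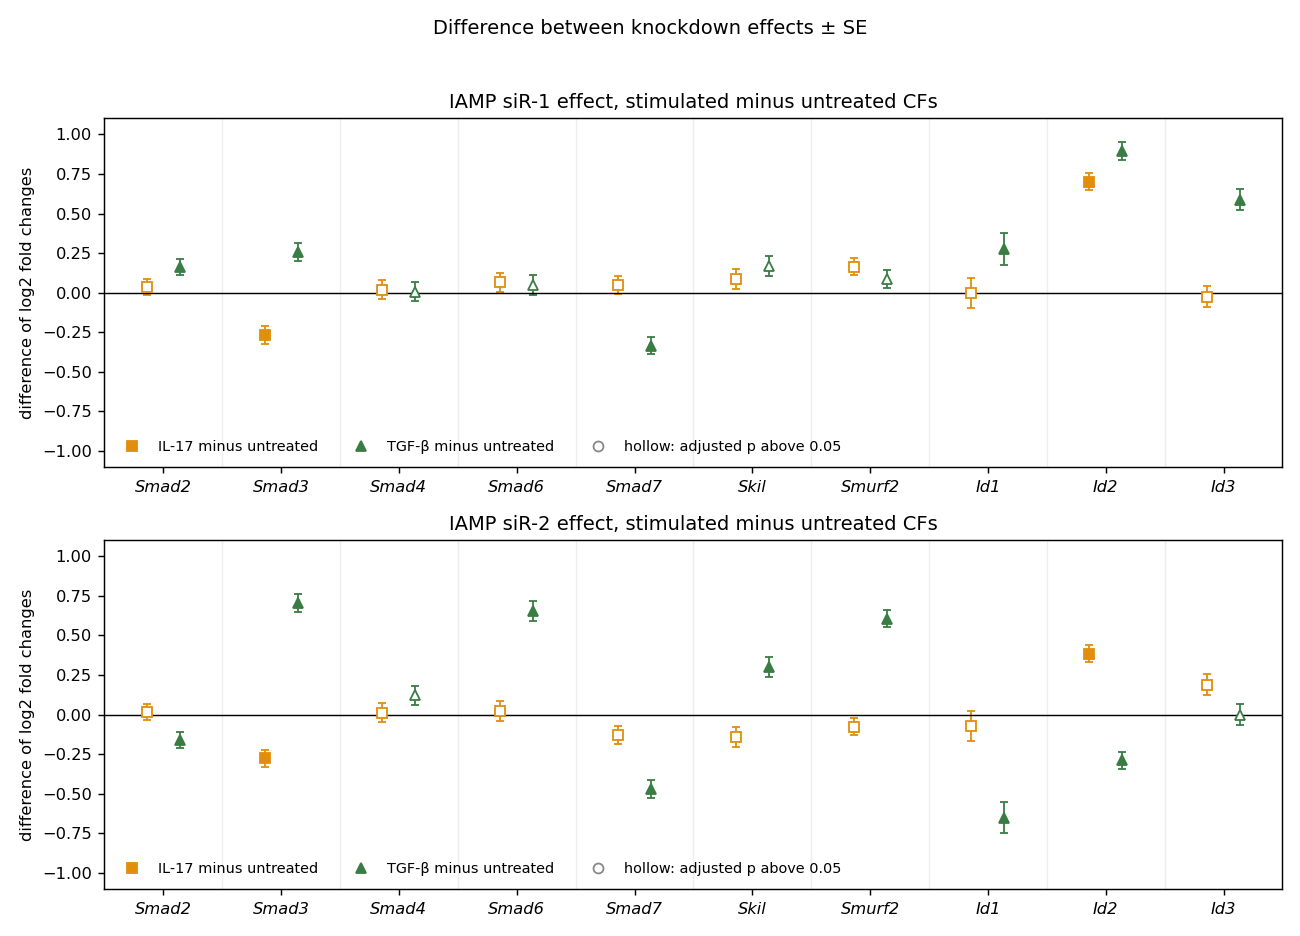
Difference of log2 fold changes (vertical axis), the siRNA effect in IL-17 or TGF-β CFs minus that in untreated CFs, for IAMP siR-1 (top) and IAMP siR-2 (bottom). Points are edgeR estimates from the 27 CF libraries, bars are ± SE, and hollow points missed the adjusted p threshold of 0.05. With IL-17 only Smad3 and Id2 passed it, with both siRNAs.

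The wider pathway was read from lists of genes beside the 10, given by counts. Over all genes tested in untreated CFs, 19.5% were higher and 20.4% lower after siR-1, and 24.4% and 25.0% after siR-2. With TGF-β in Scrambled CFs these shares were 28.0% and 27.5%. Of 17 genes for other receptor-regulated SMADs, coregulators and feedback proteins, 9 were higher and 4 lower after siR-1 and 10 higher and 5 lower after siR-2 in untreated CFs, and 4 were higher and 12 lower with TGF-β in Scrambled CFs (list median log2 fold changes 0.14, 0.17 and -0.43, with -0.016, -0.020 and 0.019 over all genes). Smad9, a BMP-branch SMAD, had log2 fold changes of -0.20 ± 0.081 after siR-1 (edgeR adjusted p = 0.0594), -0.92 ± 0.083 (SE, edgeR adjusted p = 5.77e-08) after siR-2 and -1.89 ± 0.12 (SE, edgeR adjusted p = 2.10e-15) with TGF-β. Pmepa1, a TGF-β target that restrains SMAD signals, was higher in all 3, with 0.34 ± 0.038, 0.47 ± 0.038 and 2.04 ± 0.035 (SE, edgeR adjusted p = 1.06e-29).

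Of 10 well-known TGF-β and SMAD3 target genes, 1 of them (Col1a1) also a fibroblast marker, 7 were higher and 3 lower with TGF-β in Scrambled CFs, with a list median of 1.09. Ltbp2, a matrix protein of elastic fibers, rose from 15.7 to 442 CPM (4.82 ± 0.06 SE, edgeR adjusted p = 5.88e-32) and the cell cycle inhibitor Cdkn2b from 19.4 to 102 CPM (2.39 ± 0.06 SE, edgeR adjusted p = 1.44e-25). In untreated CFs, 7 of the 10 were higher and 2 lower after siR-1, while 1 was higher and 9 lower after siR-2, and the list medians were 0.24 and -0.58. The shares over all genes were 19.5% and 20.4% after siR-1 and 24.4% and 25.0% after siR-2. Ltbp2 itself was higher after siR-1 (0.59 ± 0.075) and lower after siR-2 (-0.61 ± 0.077), and Cdkn2b was lower with both (-0.28 ± 0.072 and -0.54 ± 0.073). Under TGF-β, 5 of the 10 were lower with each siRNA, none higher after siR-1 and 2 higher after siR-2. There 11.7% of all genes were higher and 11.4% lower after siR-1, and 15.1% and 14.8% after siR-2.

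The BMP branch, of which the Id genes are classical targets, was read from transcripts of 18 ligands, receptors and antagonists. Of these, 17 could be tested. In untreated CFs 9 were higher and 2 lower after siR-1 and 5 higher and 10 lower after siR-2, and with TGF-β 7 were higher and 5 lower. The shares over all genes were 19.5% and 20.4%, 24.4% and 25.0%, and 28.0% and 27.5% in the same order. The list medians were 0.16, -0.14 and 0.014, against -0.016, -0.020 and 0.019 over all genes, so with TGF-β the list lay near all genes. Grem1, a BMP antagonist with a mean of 5.28 CPM in untreated Scrambled CFs, rose with both siRNAs (0.92 ± 0.11 and 0.40 ± 0.11) and fell with TGF-β (-2.40 ± 0.15 SE, edgeR adjusted p = 4.68e-15). Of 8 BMP target genes beside the 10, 7 could be tested, and in untreated CFs none was higher and 4 were lower with each siRNA. Their median log2 fold change was -0.76 after siR-1 and -0.54 after siR-2, beside the same shares and medians over all genes. Several were low, with means over the CF libraries of 0.482 CPM for Hey1, 0.843 for Hey2, 1.67 for Msx2 and 3.31 for Id4. Msx1 averaged 5.34, Runx2 17.4 and Atoh8 51.1 CPM. The fourth Id gene, Id4, went from 7.95 CPM in Scrambled to 3.84 CPM after siR-1 and 1.77 CPM after siR-2 (-1.06 ± 0.18 SE, edgeR adjusted p = 1.92e-04 and -2.19 ± 0.19 SE, edgeR adjusted p = 6.92e-08), and fell with TGF-β too (-1.50 ± 0.20). Msx2, a homeobox target of BMP, was low and missed the threshold with both siRNAs (-0.97 ± 0.40 and -0.36 ± 0.39) but rose with TGF-β (2.18 ± 0.28 SE, edgeR adjusted p = 3.57e-08). With TGF-β 1 of the 7 was higher and 4 were lower, with a list median of -0.25, where 28.0% of all genes were higher and 27.5% lower.

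Among 9 bHLH genes (1 of them, Tcf21, also a fibroblast marker), the partners and relatives of the factors that Id proteins bind, 2 were higher and 4 lower after siR-1 and 2 higher and 6 lower after siR-2 in untreated CFs, and 3 were higher and 5 lower with TGF-β. The shares over all genes were 19.5% and 20.4%, 24.4% and 25.0%, and 28.0% and 27.5% in the same order. The list medians were -0.098, -0.20 and -0.18, against -0.016, -0.020 and 0.019 over all genes. Bhlhe40, a bHLH repressor, rose with both siRNAs (0.54 ± 0.036 and 0.99 ± 0.036 SE, edgeR adjusted p = 7.42e-13) and with TGF-β (1.43 ± 0.036 SE, edgeR adjusted p = 1.21e-25). Scx, a bHLH factor of tendon and fibrous tissue, gave 0.14 ± 0.11 after siR-1, fell after siR-2 (-0.57 ± 0.11 SE, edgeR adjusted p = 2.89e-04) and rose with TGF-β (1.01 ± 0.11 SE, edgeR adjusted p = 1.84e-09).

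Over the 27 CF libraries, the genes most like each of the 10 in pattern (Pearson's r of log2 CPM among 13320 genes that averaged 1 CPM or more, a description, since libraries share tables and groups) had r of at least 0.944 for all but Skil. These are the highest values among many genes. With TGF-β in Scrambled CFs 28.0% of genes were higher and 27.5% lower, so a high r does not mark a particular likeness. Id1 was most like Kctd20 and Net1 (r = 0.986 and 0.985), Id2 like S100a10 and Arhgap6 (0.985 and 0.975) and Id3 like Clca3a2 and St3gal1 (0.983 and 0.979). Smad7 was most like Rps3 and Szrd1 (0.992 and 0.990), and Smurf2 like Ttc9 and Tsr1 (0.984 for both). Smad3 paired with Hipk1 and Dcp2 (0.979 and 0.973), Smad6 with Zhx3 and Tmpo (0.967 and 0.966), Smad4 with Hook3 and Eif3a (0.980 and 0.978) and Smad2 with Frs2 and Stom (0.952 and 0.944). For Skil the nearest were Dusp15 and Kansl1l, at 0.855 and 0.851. Among the 10 themselves, the 3 Id genes had r of 0.953 to 0.956 with each other, Smad4 and Smurf2 0.975, and Skil at most 0.630, with Smad3.

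In hearts, IAMP-KO was set against Het to ask whether loss of the micropeptide moved these genes in the intact organ at baseline. None of the 10 passed the threshold by edgeR's quasi-likelihood test, which called 0% of 16675 genes. None of the 10 had an unadjusted p under 0.05 by that test, and the share of all genes under it was not counted. DESeq2 also called none of the 10, and of 29670 genes it called 3 higher and 2 lower. The log2 fold changes ran from -0.014 for Smad6 to 0.13 for Id1, with SE from 0.066 to 0.15. Id1 was at 37.8, 31.8, 35.6 and 31.5 CPM in the 4 Het hearts and 34.2, 44.7, 37.3 and 33.6 CPM in the 4 IAMP-KO hearts, with overlapping ranges. Id3 was at 47.6, 35.3, 42.0 and 38.7 CPM in Het and 37.9, 48.1, 48.2 and 41.8 CPM in IAMP-KO hearts, again overlapping. Id2, the lowest of the 10 in hearts by CPM, was at 7.41, 4.31, 6.53 and 6.81 CPM and 6.26, 6.00, 6.29 and 6.86 CPM. Smad6, called lower in all 6 comparisons of an siRNA with Scrambled, was at 19.6, 15.8, 19.9 and 22.8 CPM and 19.4, 18.2, 21.9 and 17.8 CPM. The ranges of all 10 genes overlapped, and the pathway lists gave no call in hearts. A value short of the threshold does not show that the groups are alike, and the SE of 0.066 to 0.15 compares with 0.029 to 0.097 in the comparisons among the siRNA groups of a CF table.

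**Figure D5:**
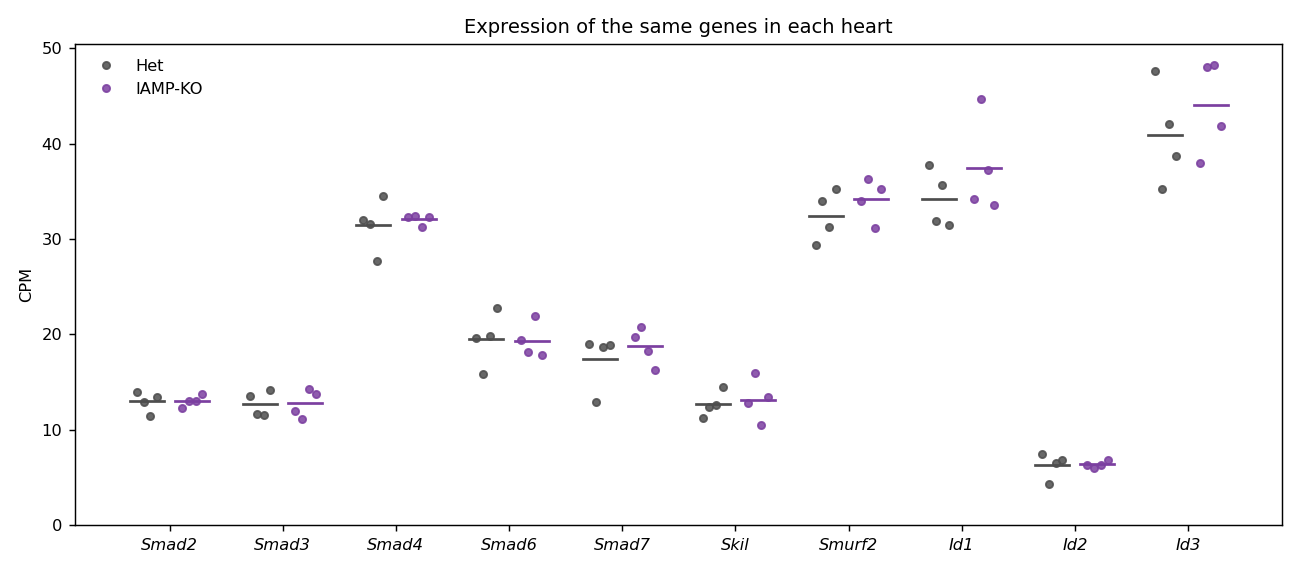
CPM (vertical axis, from 0) of the 10 genes in each heart of Het (gray, n = 4) and IAMP-KO mice (purple, n = 4). Points are hearts and bars are means. The genotypes overlapped for every gene, and Id3, Id1, Smurf2 and Smad4 had the highest CPM.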

How the data were processed

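RNA-Seq of 27 CF libraries and 8 heart libraries was analysed from 4 deposited tables of 55487 genes. Per the labels and methods, the authors trimmed reads with Cutadapt, aligned them to GRCm38 with HISAT2 and quantified them with StringTie. The deposited CF values are whole numbers that behave as StringTie estimated counts (expected counts, up to 6 per read pair), and the deposited heart values are counts, all without normalization. How StringTie output was turned into whole numbers, the annotation release and the strand setting are not given in the sources used here. Of the identifiers, 55141 are in GENCODE vM21, from which positions and exonic lengths were taken. A CF library held 104139670 to 119232309 estimated counts and a heart library 23497027 to 23857313 counts.

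The 3 siRNA groups of a CF table went into 1 fit, all 27 CF libraries into the fit for stimuli and differences of effects, and the 8 hearts into 1 fit (edgeR 4.0.16 in R 4.3.3, TMM, filterByExpr, robust quasi-likelihood test, Benjamini-Hochberg over all genes tested). SE was taken from the log2 fold change and the F statistic (size of the change over the root of F). CPM used TMM over the CF or heart libraries. The fits were tested on simulated data. Columns were matched to groups by the siRNA codes in the labels. The heart columns show only the genotype. Alternatives were DESeq2 1.42.0, RLE size factors, other filters, a replicate block, compared groups alone, division by 6, fold thresholds and each library left out. The 10 genes, the gene lists and the tests were chosen with earlier results of these data known. The text covers the 10 genes in each comparison, by value, count or range, and of each list the 2 genes with the largest called change in the untreated siRNA or the TGF-β comparison, apart from 1 that is not reported here. Protein sequences were not used here.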

Additional observations from a re-analysis of the deposited data

Results flagged for a closer look

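In hearts, 1 library lay far from the other 3 of its genotype for 2 genes. For Smad4 in IAMP-KO hearts the gap of the extreme library to the nearest other was 0.853 of the group's range, and for Smad7 in Het hearts 0.951. Both were above Dixon's 95% limit for 4 samples, which chance passes in about 1 in 20 groups, so with this many groups some pass by chance. The Smad4 values were 32.3, 32.4, 31.3 and 32.3 CPM, a small gap in a narrow range, inside the Het range of 27.7 to 34.5 CPM. The Smad7 values were 19.0, 12.9, 18.7 and 18.9 CPM.

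The knockdown effect differed between stimulated and untreated CFs, by edgeR's test of the difference itself, for 18 pairs of gene and comparison, given here as log2 differences. Stimulus and table cannot be told apart in them. With IL-17 the siR-1 effect differed by -0.27 for Smad3 and 0.70 for Id2, and the siR-2 effect by -0.28 for Smad3 and 0.39 for Id2. With TGF-β the siR-1 effect differed by 0.16 for Smad2, 0.26 for Smad3, -0.33 for Smad7, 0.28 for Id1, 0.89 for Id2 and 0.59 for Id3. With TGF-β the siR-2 effect differed by -0.16 for Smad2, 0.70 for Smad3, 0.65 for Smad6, -0.47 for Smad7, 0.30 for Skil, 0.61 for Smurf2, -0.65 for Id1 and -0.29 for Id2.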

How the results depend on the processing

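Apart from the fold thresholds, for which only counts were made, 8 of 91 called results of single genes lost the call under at least 1 alternative, and none of the 91 changed direction. Beside the library left out, Skil in untreated siR-2 against siR-1 lost it under DESeq2 (-0.11), RLE size factors (-0.12) and no filter (-0.12), Skil with siR-2 under TGF-β with the compared groups alone (0.11), and in the siR-1 difference between TGF-β and no stimulus Id1 with no filter (0.27) or the compared groups alone (0.28) and Smad2 with the latter (0.17). Fold thresholds were a log2 change of at least 1 in untreated CFs, hearts, stimuli and differences of effects, and 1.5-fold for siRNAs within the IL-17 and TGF-β tables. The methods give thresholds for knockdown in untreated and IL-17 CFs, and their use elsewhere was chosen here. With them, the counts of called genes were 0, 1 and 1 in untreated CFs (siR-1, siR-2, siR-2 against siR-1), 0, 2 and 2 with IL-17, 0, 3 and 3 with TGF-β, 0 and 5 for IL-17 and TGF-β in Scrambled CFs, and 0 in each of the 4 differences of effects and in hearts. The shares of all genes past the fold thresholds were not counted. Dividing the estimated counts by 6 gave 7 called genes in place of 4 for siR-1 under TGF-β. In that setting 2462 of 14960 genes tested were higher and 2424 lower, against 2333 and 2263 of 19891 in the main fit. With 1 library left out, the counts ranged from 5 to 6, 7 to 7 and 6 to 7 in untreated CFs, 7 to 7, 7 to 7 and 6 to 7 with IL-17, 4 to 5, 6 to 7 and 6 to 7 with TGF-β, 5 to 5 and 9 to 10 for the stimuli, 2 to 3, 2 to 3, 4 to 7 and 7 to 9 for the differences, and 0 in hearts.

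Same-numbered libraries of a CF table had deviations correlated at -0.108 to 0.0466, and differently numbered ones at -0.119 to 0.192. No pairing by number was seen, although this cannot show how the libraries were prepared. With the replicate block, Id3 in untreated siR-2 against siR-1 kept its value of 0.15 at an edgeR adjusted p of 0.0516, and no other single-gene call was lost. No paired analysis was possible for the hearts, because the columns carry no replicate number.

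Values near 0, none of them called, changed sign when a library was left out. In untreated CFs these were Smurf2 (-0.0702 to 0.00562) and Smad4 (-0.00909 to 0.0425) with siR-1, Smad4 with siR-2 (-0.0614 to 0.0229) and Smad4 between siRNAs (-0.0772 to 0.00742). With IL-17 they were Skil with siR-1 (-0.0188 to 0.0359), Smad4 (-0.00596 to 0.0132), Id3 (-0.0402 to 0.0580) and Smurf2 (-0.0225 to 0.00552) with siR-2, and Smad7 (-0.0590 to 0.0208) and Id2 (-0.00586 to 0.0261) between siRNAs. With TGF-β they were Smad4 with siR-1 (-0.0101 to 0.0654), Smad2 with siR-2 (-0.0297 to 0.0471), and Skil (-0.00975 to 0.0417) and Smad7 (-0.000482 to 0.0581) between siRNAs. For the stimuli they were Id1 (-0.0513 to 0.0495), Smad7 (-0.00437 to 0.0296) and Smurf2 (-0.0475 to 0.0252) with IL-17 and Skil with TGF-β (-0.0970 to 0.0110). Among differences of effects they were Smad4 (-0.00760 to 0.0438), Id1 (-0.0439 to 0.0567) and Id3 (-0.0790 to 0.0392) for siR-1 with IL-17, Smad4 (-0.0138 to 0.0761) and Smad6 (-0.0127 to 0.0659) for siR-2 with IL-17, Smad4 for siR-1 with TGF-β (-0.0202 to 0.0435) and Id3 for siR-2 with TGF-β (-0.0479 to 0.0706). In hearts they were Skil (-0.0546 to 0.144), Smad3 (-0.0525 to 0.0671), Smad7 (-0.00947 to 0.168), Id2 (-0.122 to 0.108), Smad2 (-0.0495 to 0.0442), Smad4 (-0.0279 to 0.0757) and Smad6 (-0.101 to 0.0681).

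Other settings changed the sign of 10 such values. Under DESeq2 these were Skil with siR-1 and IL-17 (-0.00012), Smurf2 with siR-2 and IL-17 (0.00305), Smad2 with siR-2 and TGF-β (-0.00221), Smurf2 with IL-17 in Scrambled (-0.00224) and Id3 in the siR-2 difference with TGF-β (0.00348). Under RLE size factors they were Smad4 with siR-2 untreated (0.00133), Smurf2 with siR-2 and IL-17 (0.00452), Smurf2 with IL-17 in Scrambled (-0.00181), Id1 in the siR-1 difference with IL-17 (0.00475) and Id3 in the siR-2 difference with TGF-β (0.00758). With no filter they were Smad4 with siR-2 untreated (0.00535), Smurf2 with siR-2 and IL-17 (0.00586), Smad4 in the siR-1 difference with TGF-β (-0.00107) and Id3 in the siR-2 difference with TGF-β (0.00437). With at least 10 counts in every library or counts divided by 6, in that order, they were Smad4 (-0.00413 and -0.00319) and Id3 (-0.00363 and -0.00259) with siR-2 and IL-17, and Id3 in the siR-2 difference with TGF-β (0.0306 and 0.0282). In the fit of all 27 CF libraries they were Smad4 with siR-2 untreated (0.0137) and Smurf2 with siR-2 and IL-17 (0.0179), and with the compared groups alone Smad2 with siR-2 and TGF-β (-0.00485). The cause was not tested. With 3 libraries a group, differences as small as these could not be told from the spread between libraries.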
